A study of Homo sapiens with 4 samples.

Results

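The 48 genes described here encode the collagens of the fibroblast matrix, the enzymes that fold, trim and crosslink them, and the other proteins laid down in the same fibrils. They were chosen by name, as the rows of the count files that carry one of 48 gene symbols and lie on a primary chromosome, and all 48 were found among the 63677 genes counted. By role they are 7 fibrillar collagens, 6 basement membrane collagens, 11 other collagens, 5 crosslinking oxidases, 9 collagen-modifying and processing proteins, and 10 elastic and adhesive fibril proteins. After the filter on low counts 47 of them were tested, because COL10A1, the collagen of hypertrophic cartilage, had between 3 and 9 counts in each library.

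RNA-seq was done on IMR90, normal fibroblasts from human fetal lung, of 2 single isolates named I90-10 and I90-79. Control cells were transfected with non-targeting control (NTC) siRNA and knockdown cells with siRNA against HMGB1, a DNA-binding protein of the high mobility group family, in both cases with RNAiMAX for 72 h. Each isolate gave 1 control and 1 knockdown library, so each group holds 2 libraries, replicate 1 from I90-10 and replicate 2 from I90-79. All cells were grown from early passage in serum-containing medium, carried no other treatment in the labels, and were analysed as poly(A) RNA. Transfection with siRNA was shared by both groups. For IMR90, the methods of the paper name 2 different siRNAs.

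Collagen chains are folded in the endoplasmic reticulum into trimers, after prolyl and lysyl hydroxylases have modified them, and are trimmed outside the cell before they assemble. Fibrillar collagens then form the tension-bearing fibrils of the interstitium, type IV collagen forms the sheets of basement membranes, and lysyl oxidases link the assembled molecules covalently. Fibronectin, elastin, fibrillins and fibulins belong to other networks of the same matrix, and lung fibroblasts are a source of these proteins.

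The genes for the α1 and α2 chains of type IV collagen, COL4A1 and COL4A2, lie head to head, and their shared promoter is shown because both are among the members with higher levels in both knockdown libraries. In the count files, which use hg19, COL4A1 spans chr13:110801318-110959496 on the minus strand and COL4A2 chr13:110958159-111165374 on the plus strand. In RefSeq promoter windows on GRCh38.p14, which run from 250 bases before to 50 bases after a start site, 37 of the 48 members had an entry. The window of COL4A2 is chr13:110307034-110307333 on the plus strand, with the 126 bases between the start sites of both genes in capitals.
COL4A2: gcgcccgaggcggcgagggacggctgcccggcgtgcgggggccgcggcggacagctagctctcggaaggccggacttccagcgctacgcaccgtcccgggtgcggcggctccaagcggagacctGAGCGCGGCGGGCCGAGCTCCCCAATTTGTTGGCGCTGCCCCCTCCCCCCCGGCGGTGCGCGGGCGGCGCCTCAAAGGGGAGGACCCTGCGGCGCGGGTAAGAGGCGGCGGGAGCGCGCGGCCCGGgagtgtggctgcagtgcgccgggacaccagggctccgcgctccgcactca
The start sites are 127 bases apart, and the windows of both genes share 226 bases. The bases in capitals hold 1 CCAAT box (CCAAT) and 1 GC box (GGGCGG), searched on both strands, and 0 TATA boxes (TATAAA). Over the 37 member windows, CCAAT was found in 10, GGGCGG in 25 and TATAAA in 5, against 35.7%, 44.6% and 12% of 27305 windows of all genes. These matches describe the sequence only.

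The libraries held 29869338 and 35317010 counted reads in the controls and 29861687 and 31086475 in the knockdowns. HMGB1 itself had 181 and 237 normalised counts (CPM, relative to TMM-scaled library sizes) in the controls of I90-10 and I90-79 and 16.0 and 18.9 CPM in the knockdowns, a log2-fold change of −3.59 ± 0.19 (SE, n = 2 per group, adjusted p = 0.0075). Fibroblast markers were summed over 9 genes and lay between 3360 and 4459 CPM, mostly from VIM, DCN and PDGFRA. With the isolate as a block, as described below, THY1 and PDGFRB were called down among them (−0.99 and −0.68 on the log2 scale, adjusted p = 3.1e-04 and 0.0026) and LUM up (0.83, adjusted p = 0.0029). Of the 8 epithelial markers CDH1, NKX2-1 and ESRP1 were at or near 0, while KRT18 was called up. KRT8 and KRT19 were lower upon knockdown in each isolate and were not called. Of the 5 endothelial markers found, CDH5 was at 0 in every library, TEK lay between 131 and 149 CPM, and VWF was called up. All 5 leukocyte markers were at or near 0. In bulk RNA a change in the number of cells of a type and a change in RNA per cell cannot be told apart.

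The members took 7.93% of all counted reads in the control of I90-10, 4.85% in the control of I90-79, 6.80% in the knockdown of I90-10 and 4.73% in the knockdown of I90-79. These shares therefore differed more between the isolates than between the siRNA groups. Fibrillar collagens took 3.28% and 1.82% of the reads in the controls and 3.07% and 2% in the knockdowns. COL1A1, COL1A2, COL3A1 and FN1 together made up 4.11%, 2.19%, 3.4% and 2.2% in the same order. Per kilobase of exon, COL3A1 had the highest mean level over the 4 libraries (1113 CPM per kb), followed by COL1A1 (881), COL6A1 (780), COL1A2 (653), SPARC (632) and COL6A2 (619). The lowest levels among the tested members were those of COL11A1 (0.902 CPM per kb), COL8A2 (0.174) and COL21A1 (0.0887).

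What HMGB1 knockdown did to these genes was asked with edgeR's quasi-likelihood test over 15398 genes, where a call needed a log2-fold change of more than 0.6 in size and an adjusted p under 0.01. Without a term for the isolate, 0 of 47 members were called, where 0.201% of all genes tested were called. An unadjusted p below 0.05 was found for 9 members (19.1%), 3 higher and 6 lower in the knockdowns, against 28.3% of all genes. Since both libraries of an isolate come from the same cells, the isolate was also entered as a replicate block. With the block, 3 members rose and 9 fell. The 3 that rose are 6.38% of the members, close to the 6.68% of all genes, while the 9 that fell are 19.1%, against 7.84%. All verbs of change below refer to this blocked fit.

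The members that rose were COL11A1, COL4A1 and COL7A1, and those that fell were COL5A1, COL27A1, COL15A1, COL14A1, LOXL3, LOXL4, P4HA2, FN1 and ELN. The study normalised its counts with RUVs, which estimates unwanted variation from the replicates of a group, before DESeq2. Run with a single factor, RUVs then DESeq2 called 4 members up (8.51%, against 5.72% of all genes) and 6 down (12.8%, against 6.07%). It shared 8 of the 12 members with the blocked fit, left out COL7A1, COL5A1, COL27A1 and FN1, and added POSTN and PCOLCE, both up. Of those left out, COL5A1, COL27A1 and FN1 missed only the fold threshold with RUVs, at −0.48, −0.57 and −0.47. Their adjusted p with RUVs was 0.0045, 0.0031 and 0.0010. In the edgeR fit without the block, no adjusted p among the 12 was below 0.0366. DESeq2 without the block gave lower values for some of them, such as 3.4e-05 for COL4A1, and called 1 member up and 4 down. With no filter on low counts, edgeR without the block called 3 members up and 9 down. Without the block, leaving out 1 library moved the change of 7 of the 12 by more than 1.5 times, with COL7A1 at 0.01 when control replicate 1 was dropped and at 1.65 when control replicate 2 was dropped. Both knockdown libraries lay above both controls for 5 members (10.6%, against 29.8% of all genes) and below both controls for 9 (19.1%, against 30.2%). Within the isolates, 10 members were higher and 27 lower in both knockdowns, and 10 moved in opposite directions. Of all 15398 genes tested, 5987 were higher and 6071 lower in both knockdowns, and 3340 moved in opposite directions. Of the 47 fitted changes without the block, 36 were negative, against 7756 of the 15398 over all genes. The median of the members was −0.19 on the log2 scale, where the median of all genes tested was −0.0054. The median was −0.17 with the block and −0.04 with RUVs.

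**Figure D1:**
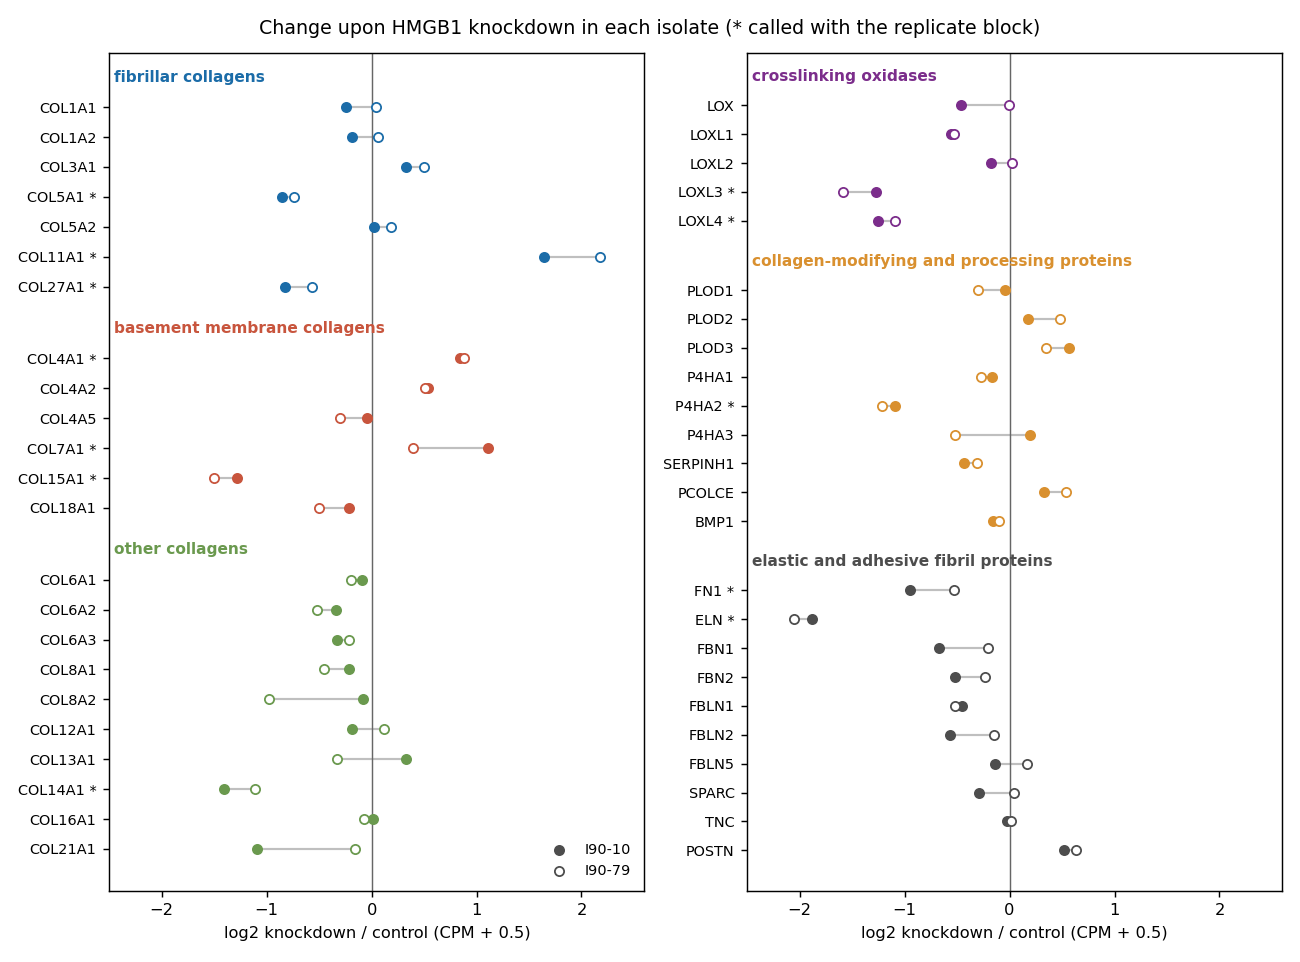
Log2 ratio of knockdown to control within each isolate, computed on CPM plus 0.5, for the 47 tested members grouped by role, with filled points for I90-10, open points for I90-79 and a star for the 12 members called with the replicate block. All 5 crosslinking oxidases lie left of 0 in I90-10, COL4A1 and COL4A2 lie right of 0 with nearly equal points, and COL1A1 and COL1A2 fall on either side of 0.

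Among the fibrillar collagens, the major chains of type I and type III collagen did not pass the test, and the minor chains that did went in both directions. COL1A1, the α1 chain of type I collagen, had 12559 and 5665 CPM in the controls of I90-10 and I90-79 and 10573 and 5823 CPM in the knockdowns. The groups overlapped, and in each group I90-10 was above I90-79. The change was −0.15 ± 0.47 on the log2 scale (SE, adjusted p = 0.86) and −0.10 ± 0.11 with the block (adjusted p = 0.50). COL1A2, the α2 chain that pairs with it, went from 10228 and 4843 to 8992 and 5049 CPM, with −0.06 ± 0.11 in the blocked fit. COL3A1, the chain of type III collagen, had 7835 and 5257 CPM in the controls and 9849 and 7412 CPM in the knockdowns. It was higher in the knockdown of each isolate, but the groups overlapped, and its change of 0.41 ± 0.10 with the block (adjusted p = 0.016) was not called.

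COL5A1 (hg19 chr9:137533620-137736686, plus strand), a chain of type V collagen, which nucleates type I fibrils, had 1058 and 482 CPM in the controls and 584 and 289 CPM in the knockdowns. Within each isolate the knockdown was lower, although the knockdown of I90-10 was above the control of I90-79. COL5A1 fell by 0.80 ± 0.10 on the log2 scale with the block (adjusted p = 6.7e-04), while the fit without it gave an adjusted p of 0.32. COL5A2, its partner chain, had 1618 and 1134 CPM in the controls and 1649 and 1290 CPM in the knockdowns, a change of 0.11 ± 0.10 with the block.

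COL11A1 (chr1:103342023-103574052, minus strand), a chain of type XI collagen, the minor fibrillar collagen of cartilage, had 5.21 and 1.0 CPM in the controls and 17.3 and 6.28 CPM in the knockdowns. These are 153, 37, 501 and 196 counts, so the lowest library rests on few reads. Both knockdown libraries were above both controls. COL11A1 rose by 2.09 ± 0.24 with the block (adjusted p = 5.0e-04), which without the block was 1.94 ± 0.84 (adjusted p = 0.21). COL27A1 (chr9:116917840-117074791, plus strand), a fibrillar collagen also known from cartilage, had 73.4 and 50.3 CPM in the controls and 41.3 and 33.8 CPM in the knockdowns, without overlap, and fell by 0.70 ± 0.11 (adjusted p = 0.0021 with the block, 0.11 without).
Over the 7 fibrillar collagens the median change without the block was −0.10, and 3 changes were positive.

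Among the basement membrane collagens, both ubiquitous chains of type IV collagen were higher in both knockdown libraries, COL7A1 rose and COL15A1 fell. COL4A1 had 1113 and 1275 CPM in the controls and 1992 and 2350 CPM in the knockdowns. The knockdowns were well separated from the controls and the isolates close to each other. COL4A1 rose 1.82-fold in the ratio of mean CPM, a log2-fold change of 0.86 ± 0.10 with the block (adjusted p = 4.6e-04) and 0.86 ± 0.17 without it (adjusted p = 0.046). COL4A2 had 1326 and 1529 CPM in the controls and 1928 and 2170 CPM in the knockdowns, again without overlap. Its change of 0.52 ± 0.09 had an adjusted p of 0.0045 with the block and stayed under the fold threshold, so it was not called. The difference in change between both genes of the shared promoter shows in their ratio, given below.

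COL7A1 (chr3:48601506-48632700, minus strand), the collagen of the anchoring fibrils that tie basement membrane to stroma, had 56.0 and 174 CPM in the controls and 121 and 229 CPM in the knockdowns. It was higher upon knockdown in each isolate, by 1.11 on the log2 scale in I90-10 and by 0.40 in I90-79, and the groups overlapped. COL7A1 rose by 0.75 ± 0.16 with the block (adjusted p = 0.0089), and its adjusted p was 0.53 without the block and 0.032 with RUVs. COL15A1, a collagen of basement membrane zones at chr9:101705461-101833069 on the plus strand of hg19, had 408 and 198 CPM in the controls and 167 and 69.9 CPM in the knockdowns. Both knockdowns were below both controls. COL15A1 fell by 1.40 ± 0.10 with the block (adjusted p = 7.8e-05), and without it the adjusted p was 0.16. COL18A1, the parent protein of endostatin, and COL4A5 did not pass, with −0.36 ± 0.10 (adjusted p = 0.034) and −0.17 ± 0.10 in the blocked fit. Of the exonic bases of COL18A1, 16.4% overlap SLC19A1 on the other strand. The 6 basement membrane collagens had a median of 0.16 without the block, with 3 positive and 3 negative changes. The epithelial markers, which share basement membranes with fibroblasts in tissue, were summed over 8 genes. The sums were 64.0 and 68.0 CPM in the controls and 82.0 and 99.1 CPM in the knockdowns. Most came from KRT18, which was called up (0.74, adjusted p = 9.5e-04 with the block). KRT8 and KRT19 were lower upon knockdown in each isolate and were not called, and CDH1, NKX2-1 and ESRP1 were at or near 0. The endothelial markers summed to 150 and 149 CPM in the controls and to 136 and 136 CPM in the knockdowns, nearly all from TEK. VWF had 1.36 and 0.92 CPM in the controls and 4.16 and 2.59 CPM in the knockdowns and was called up (1.55, adjusted p = 0.0036 with the block), with CDH5 at 0. The part of these markers in the changes was not tested.

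Among the other collagens, 9 of 10 tested changes were negative and 1 member was called. COL14A1, a fibril-associated collagen, had 36.2 and 24.5 CPM in the controls and 13.4 and 11.1 CPM in the knockdowns. The groups did not overlap, and COL14A1 fell by 1.29 ± 0.13 with the block (adjusted p = 2.8e-04). Its adjusted p of 0.037 without the block was the smallest of all members in that fit. The type VI collagen chains form beaded filaments next to the cell surface. COL6A1 had 5669 and 3019 CPM in the controls and 5335 and 2628 CPM in the knockdowns, and COL6A2 had 4906 and 2679.7 CPM in the controls and 3882 and 1867 CPM in the knockdowns. The groups of both genes overlapped, and neither was called, with −0.14 ± 0.10 (adjusted p = 0.30) for COL6A1 and −0.43 ± 0.10 (adjusted p = 0.014) for COL6A2 in the blocked fit. The remaining tested members, COL6A3, COL8A1, COL8A2, COL12A1, COL13A1, COL16A1 and COL21A1, ranged from −1.18 for COL21A1 to 0.07 for COL13A1 without the block, and none was called. COL21A1 and COL8A2 had at most 34 counts in any library. The median of the 10 was −0.31 without the block.

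The crosslinking oxidases, which oxidise lysines of collagen and elastin, had 5 negative changes of 5 and a median of −0.55. The low-abundance oxidases were the ones that passed. LOXL3 (chr2:74759541-74782817, minus strand) had 35.8 and 22.8 CPM in the controls and 14.5 and 7.24 CPM in the knockdowns, without overlap. It fell by 1.47 ± 0.14 with the block (adjusted p = 2.1e-04, against 0.086 without it). Of its exonic bases, 19.2% overlap HTRA2 and DOK1 on the opposite strand, and the strand setting of the counting was not given in the sources used here. LOXL4 (chr10:100007447-100028007, minus strand) had 45.3 and 14.9 CPM in the controls and 18.8 and 6.76 CPM in the knockdowns. Its knockdown in I90-10 was above its control in I90-79, and within the isolates the changes were −1.25 and −1.09. LOXL4 fell by 1.21 ± 0.12 with the block (adjusted p = 2.8e-04, against 0.29 without it).

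The most abundant oxidases did not pass. LOX, the prototype of the family, had 865 and 459 CPM in the controls and 629 and 458 CPM in the knockdowns, lower in I90-10 and level in I90-79. Its change with the block was −0.23 ± 0.12 (adjusted p = 0.19). LOXL2, which acts on type IV collagen among other targets, had 903 and 582 CPM in the controls and 799 and 590 CPM in the knockdowns, a change of −0.08 ± 0.10 (adjusted p = 0.59). LOXL1, needed for elastic fibres, stood between, with −0.55 ± 0.10 and an adjusted p of 0.0039 in the blocked fit, under the fold threshold.

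Among the proteins that modify and process collagen, 1 of 9 passed. P4HA2 (chr5:131527531-131631008, minus strand), a catalytic subunit of prolyl 4-hydroxylase, which stabilises the collagen helix, had 205 and 137 CPM in the controls and 96.3 and 58.7 CPM in the knockdowns. The groups did not overlap, and P4HA2 fell by 1.15 ± 0.10 with the block (adjusted p = 1.3e-04, against 0.082 without it). Of its exonic bases, 6.45% overlap the antisense gene P4HA2-AS1. P4HA1, the other main catalytic subunit, had −0.22 ± 0.09 (adjusted p = 0.10) in the blocked fit. SERPINH1, the collagen chaperone HSP47, had 1415 and 1051 CPM in the controls and 1049.9 and 850.2 CPM in the knockdowns. The control of I90-79 and the knockdown of I90-10 nearly touched, and the change of −0.37 ± 0.10 (adjusted p = 0.022 with the block) was not called. PLOD1, a lysyl hydroxylase, had 493 and 390 CPM in the controls and 478 and 318 CPM in the knockdowns, a change of −0.17 ± 0.10 (adjusted p = 0.24). The lysyl hydroxylases PLOD2 and PLOD3 were higher in both knockdowns than in both controls, with 0.33 ± 0.11 (adjusted p = 0.048) and 0.45 ± 0.10 (adjusted p = 0.010), and neither was called. PCOLCE and POSTN, the members called by RUVs alone, are given after their values had been seen. PCOLCE, an enhancer of procollagen trimming, had 145 and 67.2 CPM in the controls and 182 and 97.6 CPM in the knockdowns, higher in each isolate upon knockdown and with overlapping groups. Its change was 0.43 ± 0.10 with the block and 0.73 with RUVs (adjusted p = 8.7e-06), where it was called up. PCOLCE shares 16.6% of its exonic bases with its antisense gene PCOLCE-AS1. P4HA3 and BMP1, the procollagen C-proteinase, were between −0.17 and −0.13 in the blocked fit. The median of the 9 was −0.15 without the block.

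Among the elastic and adhesive fibril proteins, ELN and FN1 fell, and the matrix glycoproteins SPARC and TNC differed little between the groups. ELN, the elastin gene at chr7:73442119-73484237 on the plus strand of hg19, had 19.5 and 9.28 CPM in the controls and 4.95 and 1.86 CPM in the knockdowns. These are 574, 342, 143 and 58 counts, and both knockdowns were below both controls. ELN had the largest decrease of the 9 members that fell, 2.13 ± 0.18 on the log2 scale with the block, where it fell with an adjusted p of 1.3e-04, against 0.087 without the block. FN1 (chr2:216225163-216300895, minus strand), the gene of fibronectin, which collagen needs to assemble, had 11173 and 5212 CPM in the controls and 5772 and 3601 CPM in the knockdowns. The knockdown of I90-10 was above the control of I90-79. FN1 fell by 0.74 ± 0.12 with the block (adjusted p = 0.0028), but DESeq2 with the same block gave an adjusted p of 0.42. RUVs then DESeq2 gave −0.47 (adjusted p = 0.0010), under the fold threshold, so the call of FN1 rests on edgeR.

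SPARC, a collagen-binding glycoprotein, had 4350.3 and 2120.5 CPM in the controls and 3554 and 2189 CPM in the knockdowns, a change of −0.12 ± 0.11 (adjusted p = 0.44 with the block). POSTN, the gene of periostin, had 1238 and 617 CPM in the controls and 1776 and 959 CPM in the knockdowns, again higher within each isolate with overlapping groups. Its change of 0.58 ± 0.10 in the blocked fit had an adjusted p of 0.0030 and lay just under the fold threshold, and it was called up by RUVs at 0.86. FBN1 and FBN2, the fibrillins of microfibrils, had −0.44 and −0.38 and were not called, nor were the fibulins FBLN1, FBLN2 and FBLN5, which ranged from −0.49 to 0.01, all in the blocked fit. TNC, tenascin C, had −0.01 ± 0.09. The median of the 10 was −0.43 without the block, and 9 changes were negative. The 4 smooth muscle markers, a cell type that also makes elastin, summed to 155 and 111 CPM in the controls and 107 and 92.4 CPM in the knockdowns, to which CNN1 and SMTN gave most, while MYH11 and DES were at most 2.21 CPM. CNN1 was called down (−0.88, adjusted p = 0.0044 with the block). The part of this in the changes was not tested.

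**Figure D2:**
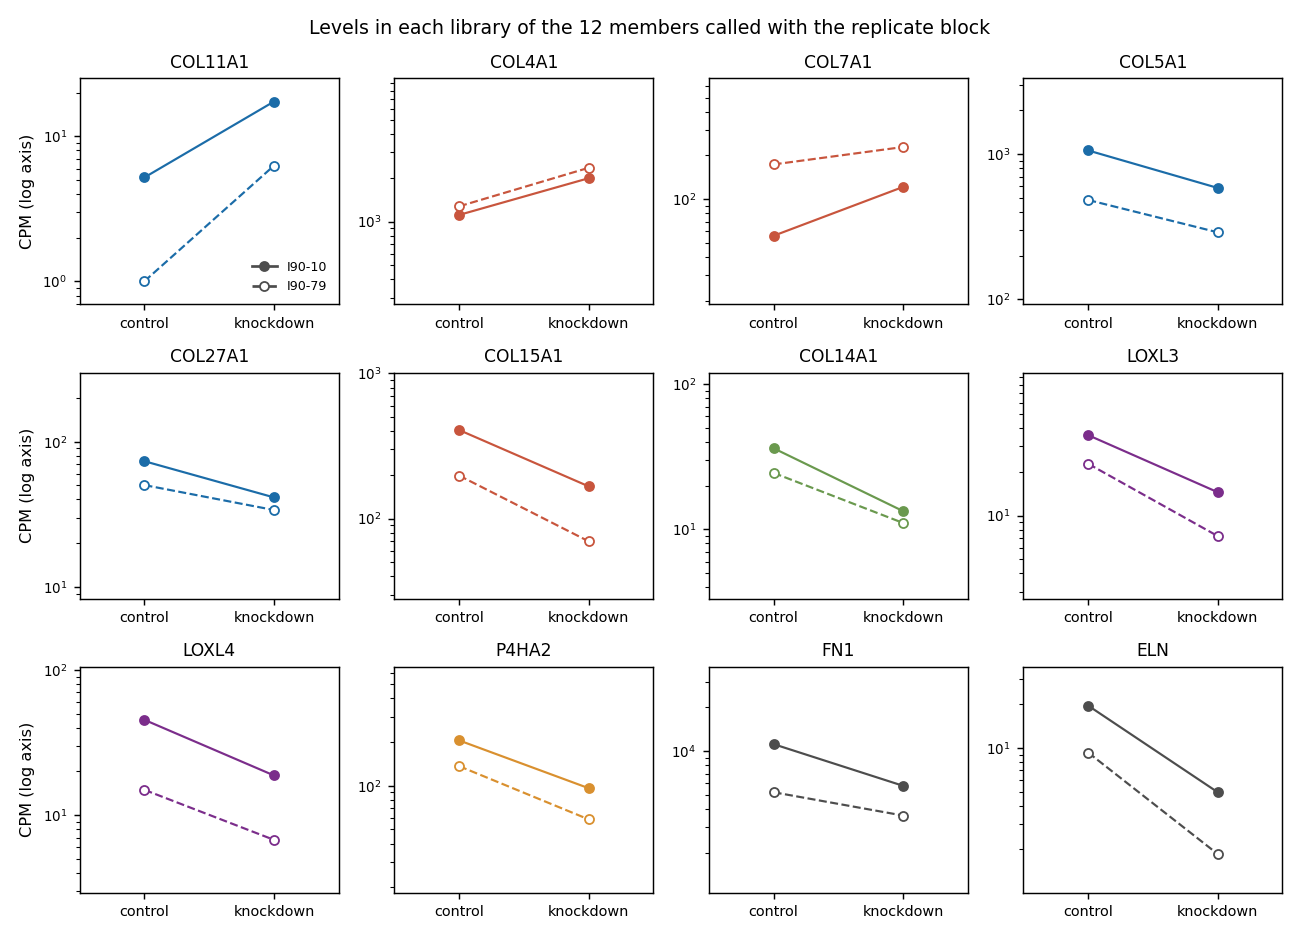
Levels in CPM, on log axes that each span the same fold range, of the 12 members called with the replicate block, from control to knockdown, with filled points and solid lines for I90-10 and open points and dashed lines for I90-79. The lines of an isolate pair run nearly parallel for most members, for example in COL4A1 and P4HA2, while the isolates start from different levels in COL11A1, COL7A1 and LOXL4.

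Ratios between chains of one collagen, or between related proteins, compare genes within a library and do not depend on its scaling. They were computed on CPM per kb for 9 pairs chosen after the values had been seen, and no test was made on them. The ratio of COL1A1 to COL1A2 was 1.39 and 1.33 in the controls and 1.34 and 1.31 in the knockdowns. This ratio of the type I chains changed 0.96-fold in I90-10 and 0.99-fold in I90-79. The ratio of COL4A1 to COL4A2 was 0.84 and 0.83 in the controls and 1.03 and 1.08 in the knockdowns, so the order of both genes of the shared promoter turned. The ratio of COL5A1 to COL5A2 was 0.42 and 0.27 in the controls and 0.23 and 0.14 in the knockdowns, and changed 0.54-fold in I90-10 and 0.53-fold in I90-79. The ratio of COL6A1 to COL6A2 was 1.17 and 1.14 in the controls and 1.39 and 1.42 in the knockdowns. That of COL6A3 to COL6A1 differed between the isolates, with 0.28 and 0.39 in the controls and 0.23 and 0.38 in the knockdowns.

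The ratio of COL3A1 to COL1A1 was 0.90 and 1.34 in the controls and 1.34 and 1.83 in the knockdowns, up 1.49-fold in I90-10 and 1.37-fold in I90-79. Among the hydroxylases, the ratio of P4HA2 to P4HA1 was 0.27 and 0.23 in the controls and 0.14 and 0.12 in the knockdowns. The ratio of PLOD3 to PLOD1 was 0.32 and 0.41 in the controls and 0.49 and 0.64 in the knockdowns. Within each kind of hydroxylase the ratio thus moved the same way in both isolates. The ratio of FN1 to COL1A1 was 0.50 and 0.52 in the controls and 0.31 and 0.35 in the knockdowns, with the isolates closer to each other than for either gene alone.

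**Figure D3:**
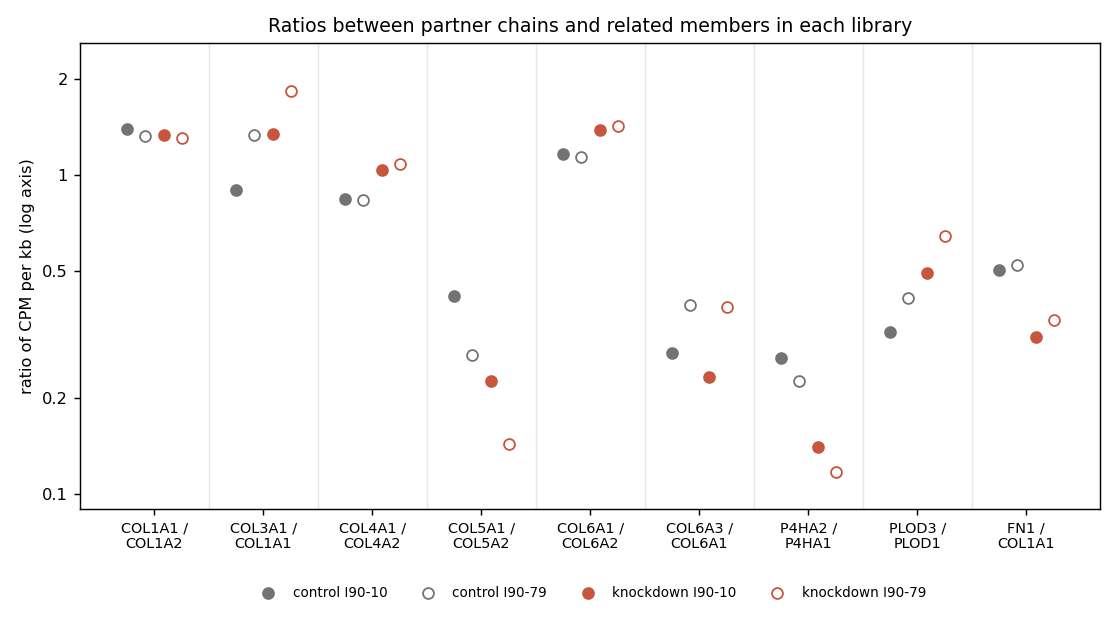
Ratios of CPM per kb between 9 pairs of members on a log axis in the control libraries (grey) and the knockdown libraries (red), filled for I90-10 and open for I90-79. The COL1A1 to COL1A2 ratio lies between 1.31 and 1.39 in all 4 libraries, while the COL4A1 to COL4A2 ratio is 0.84 and 0.83 in the controls and 1.03 and 1.08 in the knockdowns.

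More members were called between the isolates than between the siRNA groups. In the fit with terms for group and isolate, 17 of 47 members (36.2%) were called lower in I90-79 than in I90-10, against 1.23% of all genes tested, and 1 (2.13%) was called higher, against 0.442%. Of the 47 differences, 42 were negative, with a median of −0.54, where the median of all genes was 0.006. The comparison has 1 control and 1 knockdown library on each side and speaks of these isolates only. Isolate and replicate number coincide, so anything else that differed between the replicates cannot be told apart from the isolate. The summed smooth muscle markers were also higher in I90-10 within each group, which came from CNN1, with 79.2 and 34.0 CPM in the control and knockdown of I90-10 against 29.5 and 20.4 CPM in I90-79. SMTN had 71.8 and 70.7 CPM in I90-10 and 80.3 and 70.3 CPM in I90-79. The fibroblast markers summed to 4313 and 4459 CPM in I90-10 and 3360 and 3460 CPM in I90-79. Of these 9 genes, 7 had negative differences in the same fit. THY1, DCN and PDGFRB were called lower in I90-79 (−1.19, −1.02 and −0.84 on the log2 scale). PDGFRA and TCF21 had positive differences (0.23 and 0.43) and were not called. The part of these markers in the difference between the isolates was not tested.

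By role, 7 of 10 elastic and adhesive fibril proteins were called lower in I90-79, namely FN1, ELN, FBLN1, FBLN2, FBLN5, SPARC and POSTN, with a median of −0.88 over the 10. Of the fibrillar collagens, 4 of 7 were called lower, with a median of −0.96. COL1A1 was 2.01-fold lower in I90-79 (log2 difference −1.0 ± 0.11, adjusted p = 0.0033), COL1A2 1.94-fold, COL5A1 2.11-fold and COL11A1 3.50-fold. Type I collagen thus varied between isolates at a size that its change upon knockdown did not reach. Of the other collagens, COL6A1 and COL6A2 were each 1.95-fold lower in I90-79, and of the oxidases LOXL4 was 2.91-fold lower (−1.54 ± 0.12, adjusted p = 0.0016). The modifying proteins had 2 calls, PCOLCE (2.01-fold lower) and P4HA2 (1.57-fold lower). The basement membrane collagens stood apart in direction, with 4 of 6 differences positive and a median of 0.20. COL7A1 was 2.41-fold higher in I90-79 (1.27 ± 0.16, adjusted p = 0.0057), COL15A1 was 2.22-fold lower, and COL4A1 and COL4A2 were not called, with 0.22 and 0.19. No test compared the roles with each other.

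**Figure D4:**
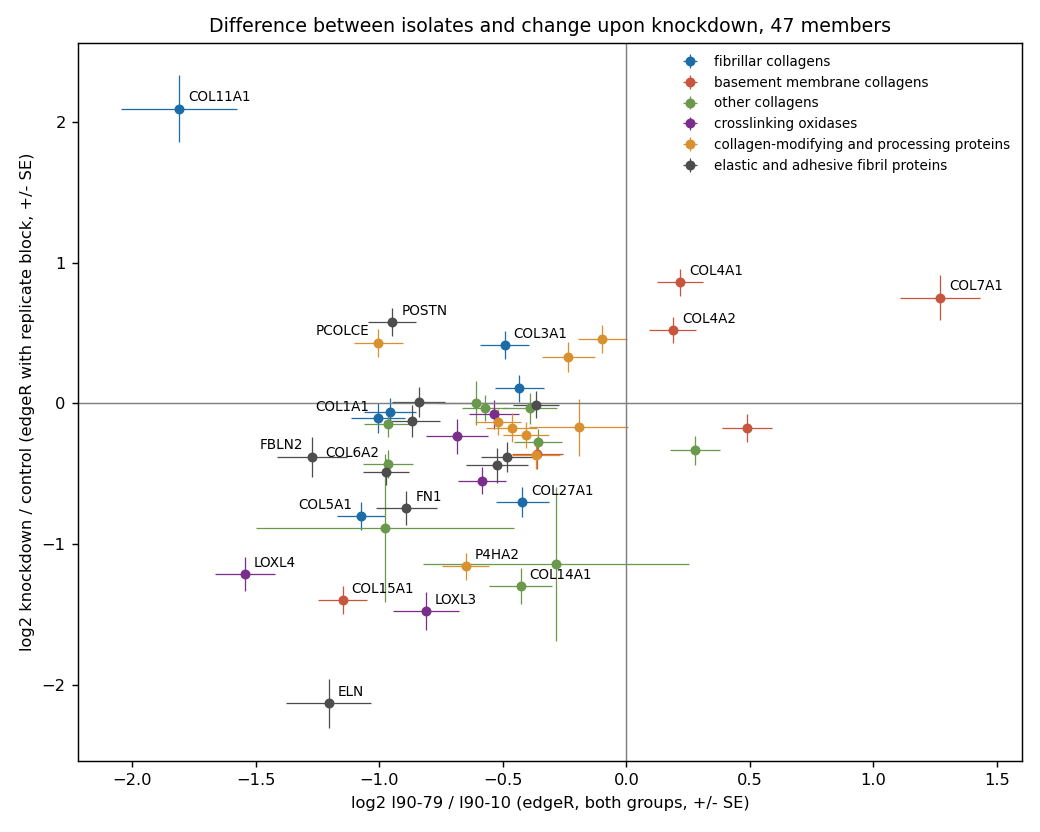
Log2 change upon knockdown in the blocked fit (vertical axis) against the log2 difference between I90-79 and I90-10 (horizontal axis) for the 47 tested members, coloured by role, with bars of 1 SE from edgeR. Most points, 42 of 47, lie left of 0, and COL4A1, COL4A2 and COL7A1 form the group at the upper right.

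The word GCAGTT was counted in the 3′ UTRs of the members, since genes that carry it had lower changes across the whole data. Its counts among the members that fell or rose are therefore not independent of these changes. The length of the 3′ UTR was not taken into account. Over the tested genes with a 3′ UTR of known sequence, the median log2-fold change was 0.07 without the word, −0.10 with 1 copy and −0.26 with 2 or more, and 36.2% of these genes held it at least once. Of the members, 14 held it and 32 did not. Among the 9 members that fell, 4 did (COL5A1, COL14A1, FN1 and ELN), and among the 3 that rose, 0 did. COL12A1 alone held more than 1 copy, and its change was −0.06 without the block. The part of this word in the changes was not tested.

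The other genes of the pathway were taken from 6 further lists and read in the same blocked fit, where 6.68% of all genes were called up and 7.84% down. Of 20 other collagen genes, 6 were tested and 1 (16.7%) rose, COL5A3, the third chain of type V collagen, from 28.0 and 14.8 CPM in the controls to 126 and 73.2 CPM in the knockdowns (2.23 on the log2 scale, adjusted p = 2.0e-05). Its direction was the opposite of that of COL5A1. Of 17 tested genes that fold and process collagen, 2 rose (11.8%) and 1 fell (5.88%). The prolyl isomerase FKBP10 rose by 1.09 and TMEM38B, an ion channel of the endoplasmic reticulum, by 1.79, while ADAMTS2, the protease that removes the amino-terminal propeptide, fell by 1.05. Of 16 genes of collagen secretion, 0 rose and 3 (18.8%) fell, namely SAR1A by 0.86 and SEC23A by 0.67, both parts of the COPII coat, and CREB3L1, a transcription factor of the secretory path, by 0.88.

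Of 9 tested collagen receptors, 3 rose (33.3%) and 1 fell (11.1%). The integrin chain ITGA2 rose by 1.90, CD36 by 1.88, and ITGB1, the integrin chain that pairs with ITGA2, fell by 0.98 on the log2 scale. DDR1, a collagen-activated kinase that rose by 0.62, was named after its value had been seen. Of 10 tested genes of elastic fibre assembly, 0 rose and 1 (10%) fell, MFAP4, by 0.70. Of 22 regulators of collagen transcription, 2 rose (9.09%) and 4 fell (18.2%). SRF, a factor for cytoskeletal and matrix genes, fell by 1.12, the ETS factor FLI1 fell by 1.80, and SMAD7, an inhibitor of TGF-β signalling, rose by 0.95. The others were TGFB1, which rose by 0.65, and ETS1 and SP3, which fell by 0.73 and 0.64, and which were named after their values had been seen. Over these lists the medians were 0.25, 0.21, −0.06, 0.01, −0.15 and −0.27 in the order given, without the block.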

How the data were processed

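RNA-seq was measured in 4 libraries of IMR90 fibroblasts. From poly(A) RNA the authors prepared TruSeq libraries for paired-end sequencing, aligned reads to hg19 by STAR at default settings, and obtained unique counts per gene by featureCounts. The deposited values are raw counts, 1 file for each library. Tool versions, strand setting and pair counting are not given in the sources used here.

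Counts were tested with edgeR 4.0.16 (limma 3.58.1, R 4.3.3) after filterByExpr and TMM scaling, with the quasi-likelihood test over 15398 genes and the Benjamini-Hochberg adjustment. The fitted scripts were tested on simulated data. The same-numbered libraries share an isolate, and their deviations from the group means, in log2(CPM + 0.5), had a correlation of 0.56, so the numbers pair the libraries and the blocked fit is given beside the main one. With 2 libraries per group an exact permutation test reaches 0.333 at best (two-sided). Replicates of a group are different isolates of the cell line. In the fit without the block, p-values measure the spread between these samples, with a variance moderated over all genes. The block takes out the difference between the isolates and leaves few residual degrees of freedom. Its p-values therefore rest largely on the variance shared over all genes. Each SE of an edgeR fit was obtained from the size of the change and the F statistic of its test. With the block, the SE thus also rests largely on this shared variance and is not a spread measured for the gene alone.

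Alternatives were DESeq2 1.42.0, RUVs with 1 factor (written from its published description) then DESeq2, other scalings, filters and thresholds, the replicate block, and leaving out each library. Combinations of the block with another choice were added after seeing the data. The members and lists were chosen with earlier results of these data known. Members called with or without the block, and the 2 with the highest mean CPM per kb in each role, are given in every library. At most 3 genes of each further list are named by smallest p in the blocked fit. Gene overlaps come from the exon coordinates given with the counts (hg19), 3′ UTRs from GENCODE models on hg19, and promoters from RefSeq on GRCh38.p14. Levels per kb use summed exon length.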

Additional observations from a re-analysis of the deposited data

How the results depend on the processing

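The count of called members depended on the isolate term, on the filter on low counts and on the variance model. Without the block, 0 members were called up and 0 down in edgeR under each scaling, when 10 counts were required in all libraries and with bias-adjusted deviances. The replicate block gave 3 up and 9 down, as did the block with DESeq2 size factors, with upper-quartile factors, with no filter on low counts and with bias-adjusted deviances, and the block with at least 10 counts gave 2 up and 9 down. No filter alone gave 3 and 9, DESeq2 1 and 4, DESeq2 with the replicate block 3 and 8, RUVs 4 and 6, and an adjusted p below 0.05 gave 1 and 1. Leaving out 1 library gave 0 up and 0 to 1 down, the 1 without control replicate 2. The blocked fit has no residual degree of freedom with 3 libraries and was not run there. Of the 12 members called with the block, 11 were called in every edgeR fit with the block (COL7A1 missed at the filter of 10 counts), and 0 changed direction in any of 13 alternatives. Without the block their size still moved by more than 1.5 times for 7 of the 12 when 1 library was left out. Without control replicate 1 the changes were −0.15 for COL5A1, 0.01 for COL7A1, 3.55 for COL11A1, −0.74 for COL15A1, −0.42 for COL27A1, −0.23 for LOXL4 and −0.15 for FN1. Without control replicate 2 they were −1.28 for COL5A1, 1.65 for COL7A1, 1.18 for COL11A1 and −1.25 for FN1. Without knockdown replicate 1 they were −1.42 for COL5A1, 0.99 for COL7A1, 1.02 for COL11A1, −2.12 for COL15A1 and −2.16 for LOXL4, and without knockdown replicate 2 −0.39 for COL5A1, 0.08 for COL7A1, −0.86 for COL15A1, −0.68 for LOXL4 and −0.50 for FN1. The other 5 stayed within 1.5 times.

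Role medians also moved, and the cause was not tested. With RUVs they were 0.22 for fibrillar collagens, −0.16 for other collagens, −0.37 for oxidases and −0.10 for elastic and adhesive proteins, and the filter of 10 counts gave −0.21 for other collagens. Leaving out 1 library gave −0.58 (without knockdown replicate 1) to 0.53 (without control replicate 1) for fibrillar collagens, −0.11 (without control replicate 1) to 0.39 (without control replicate 2) for basement membrane collagens, −0.60 (without knockdown replicate 1) to 0.021 (without knockdown replicate 2) for other collagens, −0.86 (without knockdown replicate 1) to −0.22 (without control replicate 1) for oxidases, −0.47 (without knockdown replicate 1) to 0.12 (without knockdown replicate 2) for modifying proteins and −0.75 (without control replicate 2) to 0.13 (without control replicate 1) for elastic and adhesive proteins.

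Of the 22 members named for a call with the block or for a high level in their role, 15 kept their direction throughout. Among the 22, RUVs reversed COL1A1 (0.19), COL6A1 (0.14), LOXL2 (0.084) and SPARC (0.14). Leaving out 1 library reversed COL1A1 (−0.65 to 0.53), COL6A1 (−0.73 to 0.40), COL6A2 (−1.02 to 0.10), LOX (−0.67 to 0.24), LOXL2 (−0.38 to 0.25), PLOD1 (−0.48 to 0.12) and SPARC (−0.60 to 0.44). COL1A2, COL5A2, PCOLCE and POSTN were also given in every library. RUVs reversed COL1A2 (0.22). Leaving out 1 library reversed COL1A2 (−0.58 to 0.53), COL5A2 (−0.14 to 0.37) and PCOLCE (−0.12 to 1.05), but not POSTN (0.05 to 1.15). For the isolate comparison, 14 to 20 members were called lower and 1 higher under every alternative run.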
